A study of Mus musculus with 12 samples.

Results

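Collagens are the triple-helical proteins of the extracellular matrix. Satellite cells, which are muscle stem cells, both make them and sit among them. The genes described here are every gene whose symbol is Col, a number, the letter a and a number, which gave 44 of the 55385 genes in the count tables. All 44 had at least 1 count, and 31 of them reached a mean of 1 CPM (a gene's counts per 1000000 counts of the library) over the 12 libraries. Over all genes, 12486 reached that level.

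RNA was measured in hindlimb satellite cells of C57BL/6J mice, frozen straight after isolation, with 1 animal per library. The 4 groups of 3 animals are female and male mice labelled Keap1 Het (the genotype word of the labels is read here as heterozygous) and female and male mice labelled Keap1 knockout (KO). The study asked how KEAP1, the adaptor that presents the transcription factor NRF2 for degradation, acts in satellite cell maintenance and activation in the sexes. All groups share the strain, tissue and handling. The Keap1 allele, any Cre driver, the age of the animals and whether the deletion is limited to satellite cells are not given in the sources used here, and there is no wild-type group. Keap1 itself held 9.41, 7.63 and 8.08 CPM in the Het females, 13.3, 13.4 and 11.4 CPM in the KO females, 9.74, 5.18 and 7.39 CPM in the Het males and 6.07, 7.35 and 7.502 CPM in the KO males. Its change passed in neither sex (edgeR adjusted p = 0.186 in females and 0.936 in males). Counts summed over all its exons cannot separate deleted from retained exons and do not check the labels, and 10.9% of its exonic bases lie under another gene model, so the libraries are called KO-labelled.

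A collagen molecule is built from 3 chains that fold into a triple helix in the endoplasmic reticulum, where prolines and lysines are hydroxylated and the chaperone HSP47 (Serpinh1) holds the helix. Fibril-forming collagens are secreted as procollagens, trimmed and cross-linked into fibrils, whereas type IV collagen forms the sheet of the basement membrane, the layer that wraps each muscle fibre and covers the satellite cell. Satellite cells are known to make collagen V, which acts on the calcitonin receptor (Calcr) of the same cells and holds them in quiescence downstream of Notch, and collagen VI is a known component of their niche.

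Total counts ran from 13042039 to 19273245 per library. The satellite cell marker Pax7 stood at 9.61 to 27.4 CPM, and 14 of 14 satellite cell markers had a mean of at least 1 CPM. Among defining markers of other cells, Pdgfra, of fibro-adipogenic progenitors, stood at 1.69 to 4.94 CPM, Scx and Tnmd, of tenocytes, at 0 to 0.754 and 2.37 to 5.37 CPM. Pecam1, of endothelium, stood at 6.95 to 40.4 CPM, Rgs5, of pericytes, at 16.4 to 109 CPM, Ptprc, of leukocytes, at 0.210 to 3.22 CPM and Sox10, of Schwann cells, at 0.187 to 1.76 CPM. Females and males are in 2 separate tables, so sex and any batch of preparation cannot be told apart, and no level was tested between the tables. The KO-labelled against Het changes within each table were compared across the tables. A difference there, called a difference between the sexes below, can also not be told apart from one between batches.

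One library stood apart in its collagens. The female Het library of the animal numbered Het165 held 8354 CPM of collagen counts in all, against 3983 and 3714 CPM in the other female Het libraries, and 5853, 6220 and 5387 CPM in KO-labelled females. It was the highest of the 3 female Het libraries for 26 of 31 expressed collagens (83.9%, against 44% of all genes with a mean of at least 1 CPM). Among all 12 libraries it was the highest for 15 of 31 (48.4%, against 8.28% of all genes). The median ratio of Het165 to the mean of the other female Het libraries was 1.99 over the expressed collagens and 1.06 over all such genes. The ratio was 3.26 for Col1a1, 3.25 for Col26a1, 3.1 for Col1a2 and 3.05 for Col18a1, and 1.21 for Col8a1 and 0.683 for Col11a1. Its total count was the highest of the 12, its Pdgfra (2.8 CPM) lay within the range of the others, and its Dcn, a proteoglycan gene of fibroblasts, was the lowest of the female Het libraries at 236 CPM. Its 15 fibro-adipogenic markers, Pdgfra and Dcn among them, summed to 3104 CPM, between Het181 (2969 CPM) and Het164 (3362 CPM). Its 11 pericyte and smooth muscle markers summed to 709.5 CPM, the highest of the 12 libraries, against 468 and 398 CPM in Het164 and Het181. That rank rests on Acta2: without this gene the sum was 253.8 CPM, below Het204, Het245 and KO255 (271.5, 323.8 and 346.3 CPM). Its Acta2 was 456 CPM where the other female libraries held 244 to 450 CPM, and its Pdgfrb 16.1 CPM against 8.03 to 12.4 CPM. Female collagen calls below that this library decides are given with and without it.

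In males the summed collagens were 1636, 3711 and 2154 CPM in Het204, Het245 and Het249, and 2969, 1833 and 2846 CPM in KO240, KO247 and KO255. Het245 was the highest of the male Het libraries for 23 of 31 expressed collagens (74.2%, against 38.9% of all genes), and KO247 the lowest of the male KO-labelled libraries for 24 of 31 (77.4%, against 40.2%). Within the female Het and both male groups, most collagens thus had the same library at the top or bottom.

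**Figure D1:**
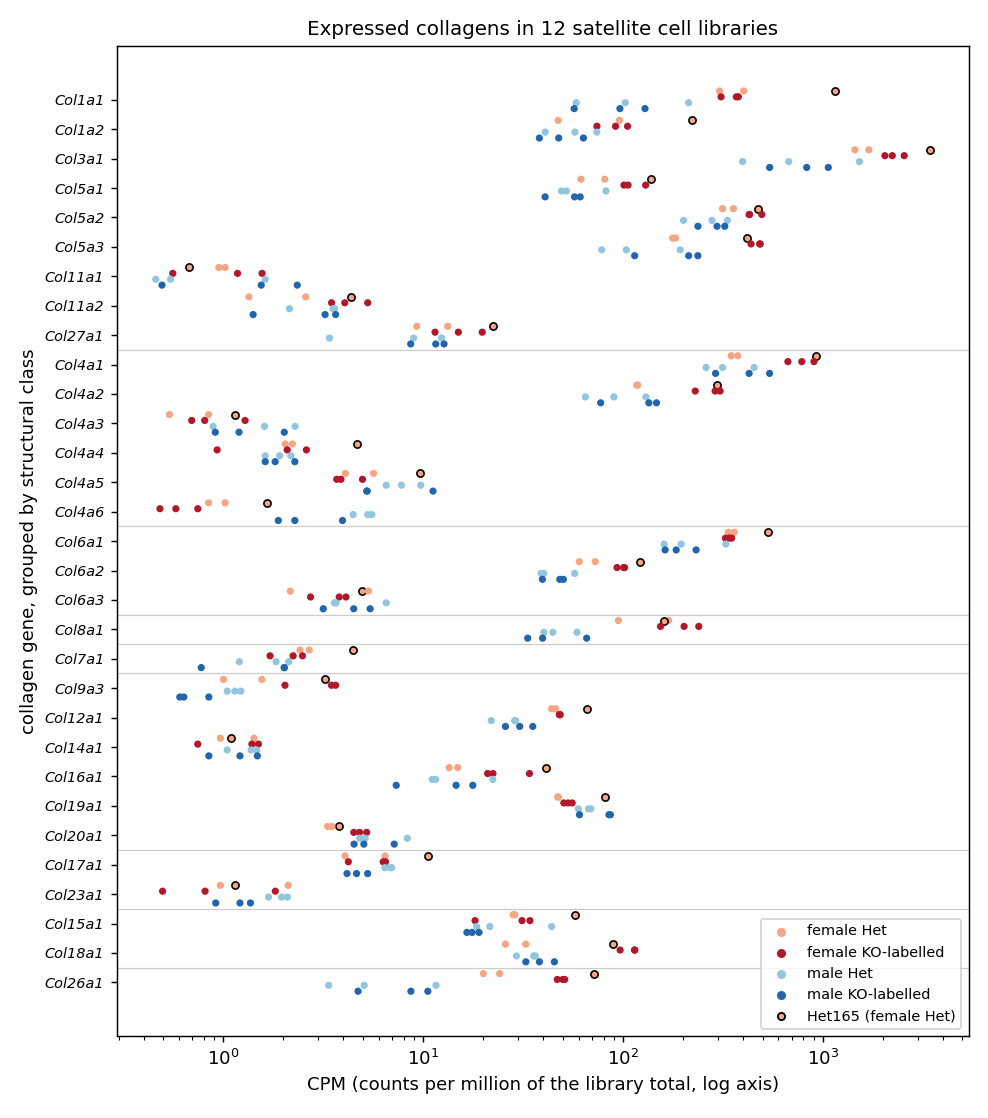
CPM of the 31 expressed collagens in the 12 libraries on a log axis, grouped by structural class, with 1 point per animal and Het165 outlined. Col3a1 lies to the right of all others in every library, and the outlined point is the highest of the female Het points in 26 of 31 rows.

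Between genes, levels are compared per length, as RPKM (CPM per kilobase of the gene's exons). Fibril-forming collagen III led: Col3a1, the only chain of that homotrimer (GRCm38 chromosome 1, 45311538 to 45349706), had a mean of 156.6 RPKM and alone held 24.3% to 42.7% of all collagen counts of a library. Next came Col4a1 at 70.3 RPKM, Col6a1 at 66.7, Col1a1 at 45.4, Col5a3 at 38.3, Col5a2 at 36.2, Col4a2 at 25.2 and Col8a1 at 13.9. These 8 genes held 78.3% to 89.2% of the collagen counts in every library. With the length of the longest protein-coding transcript in place of the deposited length, Col3a1 was at 276 RPKM and Col5a2, at 52.4, passed Col1a1 and Col5a3. The library ranges of neighbours in this order overlapped, from 34.9 to 124 RPKM for Col4a1 and 36.7 to 121 for Col6a1, and from 8.7 to 175 for Col1a1 and 11.5 to 71.5 for Col5a3.

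All 6 type IV genes and both multiplexin genes were expressed, as were 9 of 11 fibril-forming genes, 3 of 6 beaded-filament genes of type VI, 1 of 3 hexagonal-network genes, 6 of 9 fibril-associated genes, 2 of 4 membrane-spanning genes and Col7a1 of the anchoring fibril. The 13 genes under 1 CPM were Col6a6, Col28a1, Col22a1, Col8a2, Col13a1, the cartilage gene Col2a1, Col9a2, Col9a1, Col25a1, Col24a1, the growth-plate gene Col10a1, Col6a4 and Col6a5. Their means ran from 0.869 CPM for Col6a6 down to 0.0224 CPM for Col6a5, which had 5 counts in 1 library and 0 in the other 11. Just above the limit were Col11a1 at 1.08 and Col4a3 at 1.19 CPM, and just below it Col6a6 at 0.869 and Col28a1 at 0.809 CPM.

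KO-labelled and Het animals were then compared within each sex, by edgeR's quasi-likelihood test over all genes, with p-values adjusted by Benjamini-Hochberg and called under 0.05. No collagen passed in either sex. In females 0 of 37 tested collagens were called, where 2.27% of all 14036 genes were, and the smallest adjusted p was 0.0998 for Col22a1. An unadjusted p under 0.05 was held by 6 of the 37 collagens and by 2511 of the 14036 genes. In males 0 of 35 were called, where 0.861% of 13361 genes were, and the smallest adjusted p was 0.238 for Col4a6. There, 3 of the 35 collagens and 1652 of the 13361 genes had an unadjusted p under 0.05. The median log2 fold change of the tested collagens was 0.12 in females, against 0.004 over all genes, and -0.09 in males, against 0.01. Over the 31 expressed collagens the female median was 0.01. The difference between the female and the male changes passed for 0 of 38 collagens, where 0.00677% of 14772 genes passed. For it, 2 of the 38 collagens and 1829 of the 14772 genes had an unadjusted p under 0.05. The change averaged over the sexes passed for 1 of 38, Col4a6, where 3.41% of 14772 genes passed (1.27% as lower).

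DESeq2 called 1 collagen in females, Col5a3 (adjusted p = 0.0267, with 5.17% of all genes called), 0 in males (2.07%), and 2 in the average, Col4a6 and Col18a1 (0.0446, with 5.67% called). Without the filter on low counts, edgeR called Col5a3 and Col22a1 in females (3.45% of all genes), Col15a1 in males (1.33%), and Col4a6, Col6a6 and Col15a1 in the average (2.71%). The intervals of the within-sex changes were wide: for Col1a2 the 95% interval of the log2 fold change ran from -1.74 to 0.80 in females, and for Col3a1 from -0.57 to 0.59.

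**Figure D2:**
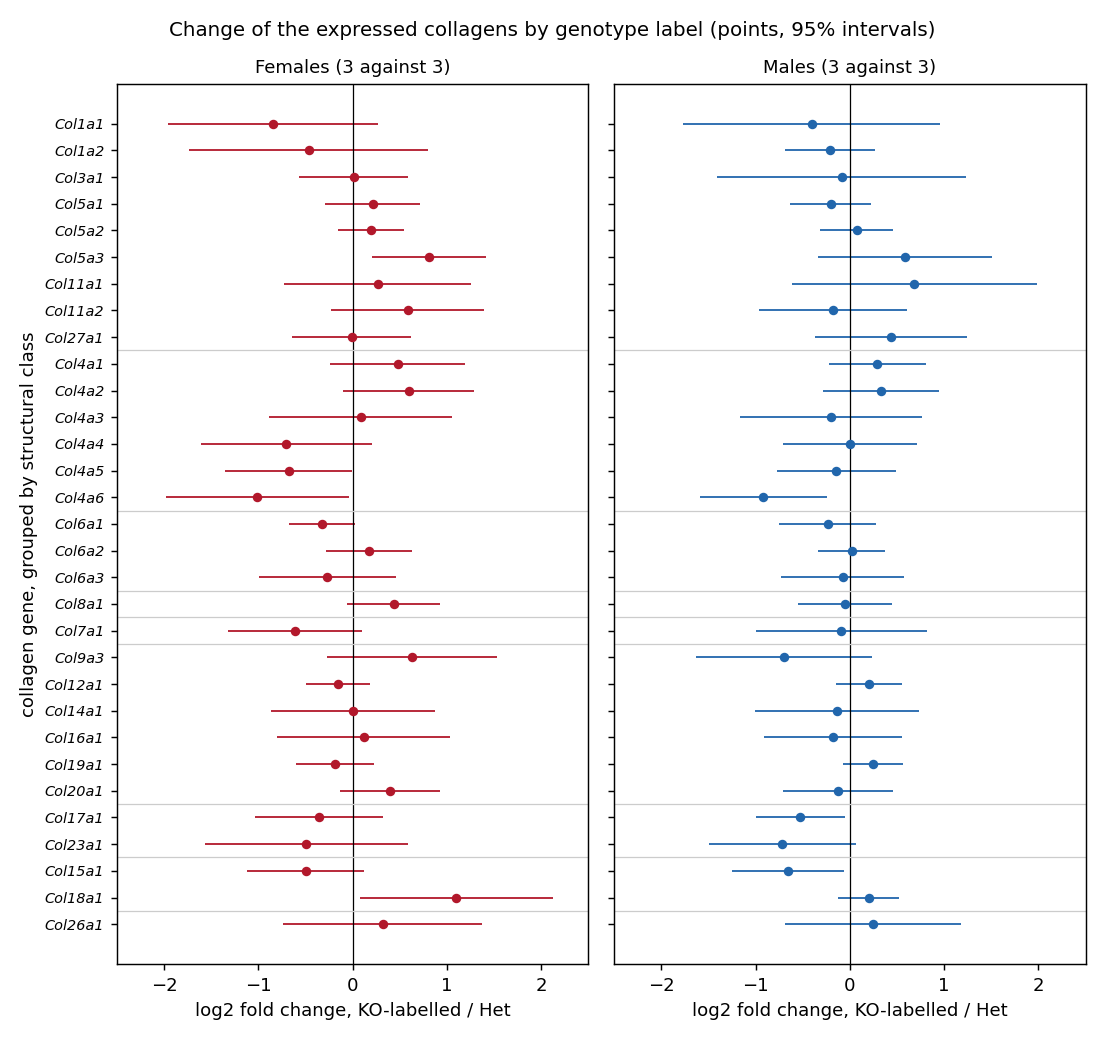
Log2 fold change of KO-labelled against Het animals with its 95% interval for the 31 expressed collagens, in females (left) and males (right), 3 animals against 3. No collagen passed the adjusted threshold in either panel, and Col4a6 lies left of 0 in both.

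Without Het165, which leaves 2 female Het against 3 KO-labelled animals, 6 collagens were called in females, all higher, where 10.2% of all 14439 genes were called (5.25% as higher). These were Col18a1, Col5a3, Col4a2, Col26a1, Col4a1 and Col5a1. The median of 38 tested collagens was then 0.36 on the log2 scale, against 0.02 over all genes, and of the 31 expressed collagens 28 had a higher fold change than with all 6 libraries. Het165 was singled out by its high collagen values in these same data, so a rise on leaving it out follows from that choice. The calls and p-values without it, for the collagens and for the related genes below, show how far the results rest on this library. They are no separate evidence of a change. Leaving out any other female library called 0 collagens, and leaving out any male library called 0 in males. In the average over the sexes the 3 called without Het165 were Col18a1, Col4a1 and Col4a2 (6.14% of all genes called), and Col4a6 was lost. The difference between the sexes passed for 1 collagen, Col18a1, without Het165 (1.36% of all genes). The pericyte and smooth muscle markers, of which 10 of 11 had a mean of at least 1 CPM, moved with the collagens in females: they summed to 646, 622 and 652 CPM in KO166, KO178 and KO188, between Het165 and the other Het females. Leaving out Acta2, the sums were 218.6, 244.8 and 201.9 CPM there, 254 CPM in Het165 and 167 and 154 CPM in Het164 and Het181. Notch3 of this list is also a satellite cell marker, and the defining marker Rgs5 was at 22.8 to 30.6 CPM in Het and 16.4 to 26.1 CPM in KO-labelled females. In males the sums were 353, 453 and 304 CPM in Het and 403, 358 and 473 CPM in KO-labelled libraries, with Het245 the highest and KO247 the lowest of their groups. Leaving out Acta2, the male sums were 271.5, 323.8 and 216.6 CPM in Het and 251.7, 252.6 and 346.3 CPM in KO-labelled libraries, with Het245 the highest and KO240 the lowest of their groups. Endothelial markers had a similar order in females. They summed to 121.6 and 114.3 CPM in Het164 and Het181, 140.4 CPM in Het165 and 132.2 to 169.8 CPM in KO-labelled females. Glial markers were also highest in Het165 among the female libraries (80.4 CPM), but were lower in KO-labelled (46.6 to 51.6 CPM) than in Het females. The part of any of these cells in the collagen levels was not tested.

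**Figure D3:**
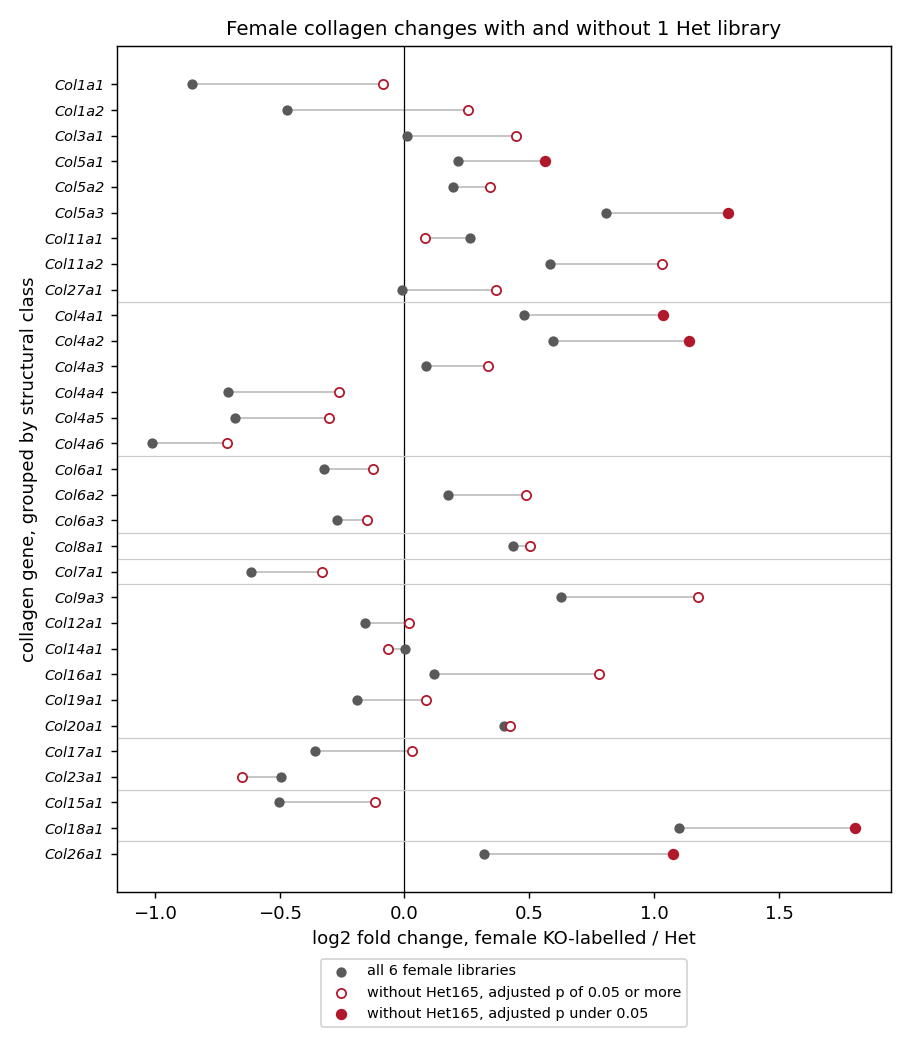
Log2 fold change of KO-labelled against Het females for the 31 expressed collagens with all 6 libraries (grey) and without Het165 (red outline, or filled where the adjusted p is under 0.05). The 6 filled points lie right of 0, and 28 of 31 points lie further right without that library. Het165 was singled out by its high collagens, so this shift follows from the choice.

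Among the fibril-forming collagens, Col3a1 stood at 1701, 3433 and 1449 CPM in female Het (Het164, Het165 and Het181, in this order throughout) and at 2228, 2556 and 2047 CPM in KO-labelled females (KO166, KO178 and KO188). Male libraries held 397, 1526 and 675 CPM (Het204, Het245 and Het249) and 1066, 542 and 831 CPM (KO240, KO247 and KO255). The groups overlapped in both sexes, and the log2 fold change was 0.01 in females (0.45 without Het165, adjusted p = 0.0937).

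Collagen I is the main fibrous collagen of tendon and muscle connective tissue. Its chain gene Col1a1 (chromosome 11, 94936224 to 94953042) stood at 305, 1151 and 402 CPM in female Het and at 378, 310 and 369 CPM in KO-labelled females. Male libraries held 58.4, 213 and 103 CPM in Het and at 96.6, 57.1 and 129 CPM in KO-labelled animals. Het165 was far above every other library for this gene, while the remaining female values of both labels interleaved. The female log2 fold change was -0.85 (edgeR adjusted p = 0.399) with Het165 and -0.09 (0.755) without it.

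Collagen V chains join type I fibrils and set their diameter, and they are the collagens known as ligands of the calcitonin receptor on satellite cells. Col5a3 (chromosome 9, 20770050 to 20815067) stood at 183, 420 and 177 CPM in female Het and at 487, 484 and 438 CPM in KO-labelled females. Male Het animals held 78.4, 194 and 104 CPM of it and male KO-labelled animals 237, 115 and 213 CPM. All female KO-labelled values lay above all female Het values, Het165 included, and in males the groups overlapped through Het245 and KO247. The change was 1.75-fold in females (log2 0.81 ± 0.27 SE, edgeR adjusted p = 0.167) and 1.5-fold in males (log2 0.59 ± 0.387, adjusted p = 0.629). Without Het165 the female change was 2.45-fold (log2 1.29, adjusted p = 0.000241).

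Col5a2, the neighbour of Col3a1 on chromosome 1 (45374321 to 45503282), held 357, 472 and 315 CPM in female Het and 430, 496 and 428 CPM in KO-labelled females. In male Het animals it held 201, 333 and 279 CPM, and in KO-labelled males 323, 237 and 296 CPM. The groups overlapped in both sexes, and the log2 fold change was 0.19 in females and 0.07 in males. Col5a1, the third chain of type V, had group means of 93.7 ± 39.7 and 112 ± 15.4 CPM in females and 61.2 ± 18.3 and 53.1 ± 10.8 CPM in males (Het and KO-labelled, mean ± SD, n = 3 in each group, as for all group means below). Its female change was 0.21 on the log2 scale, and 0.56 without Het165 (edgeR adjusted p = 0.0416).

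The lower fibril-forming genes did not pass in any setting. Col1a2 had means of 122 ± 90.3 and 90.5 ± 15.7 CPM in females and 57.5 ± 16.6 and 49.8 ± 12.8 CPM in males. Its female log2 fold change was -0.47 (edgeR adjusted p = 0.694), and 0.25 without Het165 (0.585), so the sign turned with that library. Col27a1 ranged from 3.41 to 22.5 CPM over the libraries, Col11a2 from 1.35 to 5.29 CPM and Col11a1 from 0.460 to 2.35 CPM.

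In the basement membrane class, Col4a1 and Col4a2 encode the chains of the common type IV trimer and lie head to head on chromosome 8, at 11198423 to 11312826 on the minus strand and 11312805 to 11449287 on the plus strand. Col4a1 stood at 376, 923 and 348 CPM in female Het and at 786, 904 and 669 CPM in KO-labelled females. The male values were 261, 453 and 315 CPM in Het and 428, 291 and 542 CPM in KO-labelled animals. Het165 was the highest of all 12 libraries for this gene, and the other 2 female Het libraries lay below all female KO-labelled ones.

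Col4a2 held 117, 296 and 119 CPM in female Het and 289, 307 and 230 CPM in KO-labelled females. Het164 and Het181 lay below the KO-labelled females and Het165 lay between KO166 and KO178. Its male values were 64.9, 130 and 90.2 CPM in Het and 135, 77.4 and 147 CPM in KO-labelled animals. The female log2 fold changes were 0.48 for Col4a1 and 0.59 for Col4a2 (edgeR adjusted p = 0.470 and 0.351), and 1.03 and 1.14 without Het165 (0.0034 and 0.00138). In males they were 0.29 and 0.33 (0.686 and 0.6995).

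The other type IV chains form the networks known from kidney, lens and smooth muscle. Col4a5 ranged from 3.70 to 11.2 CPM, Col4a4 from 0.933 to 4.67 CPM and Col4a3 from 0.538 to 2.29 CPM, and none of these passed.

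Col4a6 (chromosome X, 141165403 to 141474076, minus strand), which pairs with Col4a5 in the smooth muscle type network, was the 1 collagen that passed in the average over the sexes. It stood at 0.846, 1.66 and 1.02 CPM in female Het and at 0.483, 0.747 and 0.580 CPM in KO-labelled females. Male libraries held 5.29, 4.47 and 5.55 CPM in Het and at 1.89, 3.96 and 2.28 CPM in KO-labelled animals. The KO-labelled values lay below all Het values in both sexes, and the counts behind them were 9 to 32 in females and 28 to 106 in males. The change was 1.95-fold lower on average (log2 -0.96 ± 0.258 SE, 95% interval -1.51 to -0.42, edgeR adjusted p = 0.0485). Within a sex it was -1.01 in females (adjusted p = 0.265) and -0.92 in males (0.238).

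The call on Col4a6 lay at the threshold. It was lost with library totals alone as scaling (adjusted p = 0.0593), with limma voom (0.0679) and in 11 of 12 fits that left out 1 library (0.0516 to 0.136). Only without the male library KO247 was it kept among those 12 (0.0168), and DESeq2 kept it (0.0164). The log2 fold change stayed between -1.15 and -0.82 when libraries were left out. Over all tested collagens, the groups did not overlap for 7 of 37 in females (18.9%, against 22.1% of all genes) and for 4 of 35 in males (11.4%, against 17.4%), and Col4a6 was in both sets.

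Beaded filaments of collagen VI link the basement membrane to the surrounding matrix. Col6a1 (chromosome 10, 76708792 to 76726168) stood at 337, 530 and 361 CPM in female Het and at 350, 340 and 326 CPM in KO-labelled females. Male libraries held 161, 328 and 196 CPM in Het and at 232, 163 and 185 CPM in KO-labelled animals. The female log2 fold change was -0.32 (edgeR adjusted p = 0.321). Col6a2 had means of 84.9 ± 32.3 and 98.8 ± 4.63 CPM in females and 45.5 ± 10.3 and 46.1 ± 5.75 CPM in males. Col6a3, whose chain completes the collagen VI molecule, was low in every library (2.17 to 6.54 CPM). Of the alternative chains in a row on chromosome 9, Col6a6 held 0.634, 1.297 and 0.69997 CPM in female Het and 0.161, 0.187 and 0.348 CPM in KO-labelled females (3 to 25 counts, adjusted p = 0.106).

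Col8a1, of the hexagonal network collagen known from vessel walls and the cornea, held 169, 160 and 94.98 CPM in female Het and 202, 154 and 240 CPM in KO-labelled females. The male values were 59.0, 40.3 and 44.6 CPM in Het and 39.7, 33.4 and 65.9 CPM in KO-labelled animals. It was 1 of the 5 expressed collagens for which Het165 was not the highest female Het library, and both sexes' groups overlapped (edgeR adjusted p = 0.336 in females).

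Among the multiplexins, collagens of basement membranes that carry glycosaminoglycan chains, Col18a1 encodes the precursor of endostatin (chromosome 10, 77052178 to 77166548). It stood at 32.7, 89.3 and 25.8 CPM in female Het and at 115, 114 and 96.9 CPM in KO-labelled females. Male libraries held 36.4, 35.8 and 29.3 CPM in Het and at 38.2, 32.7 and 45.4 CPM in KO-labelled animals. The female KO-labelled values were the 3 highest of all 12 libraries, Het165 came next, and the 8 others lay between 25.8 and 45.4 CPM. The female change was 2.14-fold (log2 1.10 ± 0.43 SE, edgeR adjusted p = 0.251), and 3.5-fold without Het165 (log2 1.81, 0.000107). The male change was 1.15-fold (log2 0.20, adjusted p = 0.667). The difference between the sexes was 0.91 on the log2 scale (adjusted p = 0.458), and 1.61 without Het165 (0.00593).

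Col15a1, the other multiplexin, had means of 38.2 ± 16.7 and 27.9 ± 8.54 CPM in females and 28.1 ± 13.9 and 17.8 ± 1.25 CPM in males. Its log2 fold changes were -0.50 in females and -0.66 in males (edgeR adjusted p = 0.387 and 0.352).

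Col26a1, a short collagen of the EMI-domain family, held 24.2, 71.7 and 20.0 CPM in female Het and 51.2, 47.0 and 50.1 CPM in KO-labelled females. Male animals held 3.37, 11.6 and 5.08 CPM in Het and 8.70, 4.73 and 10.6 CPM in KO-labelled libraries. The highest male value was thus below the lowest female value, with sex and table not separable. The female log2 fold change was 0.32 (edgeR adjusted p = 0.757), and 1.08 without Het165 (0.00254).

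The fibril-associated collagens, which decorate fibrils without forming them, were led by Col19a1, a collagen known from muscle differentiation, at 47.2 to 86.6 CPM. Its group means were 58.8 ± 19.7 and 53.2 ± 2.55 CPM in females and 65.4 ± 4.88 and 77.5 ± 14.6 CPM in males. Col12a1 ranged from 21.9 to 66.1 CPM, Col16a1 from 7.35 to 41.2 CPM and Col20a1 from 3.33 to 8.34 CPM. Col9a3 and Col14a1 stayed under 4 CPM. Col22a1, a collagen of the muscle-tendon junction, held 0.370, 0.311 and 0.0538 CPM in female Het and 0.751, 1.43 and 1.16 CPM in KO-labelled females, from 1 to 23 counts (log2 fold change 2.09, edgeR adjusted p = 0.0998). In males its groups overlapped, at 0.230 to 1.47 CPM and 0.141 to 1.01 CPM.

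The membrane-spanning Col17a1, a collagen of hemidesmosomes known as a stem cell anchor in skin, held 4.07 to 10.6 CPM in females. Male Het animals held 6.44, 6.98 and 6.86 CPM and male KO-labelled animals 4.65, 4.17 and 5.28 CPM, with no overlap (log2 fold change -0.53, edgeR adjusted p = 0.345). Col23a1 held 0.498 to 2.11 CPM over the libraries, and Col7a1 of the anchoring fibril 0.777 to 4.46 CPM.

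**Figure D4:**
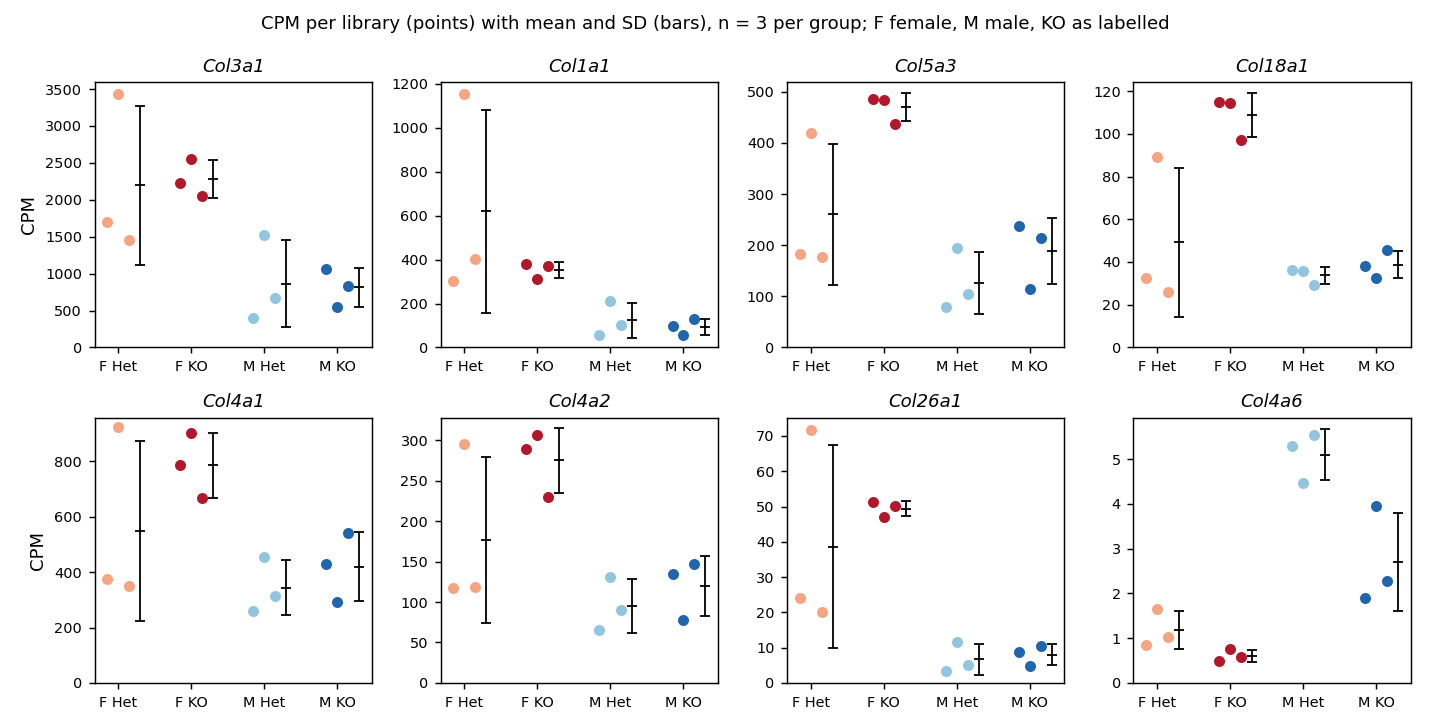
CPM in each library (points) with the group mean and SD (bars) for 8 collagens, with females in red tones and males in blue and each axis starting at 0. The single high point of the female Het group is Het165 in every panel, and for Col5a3 and Col18a1 the 3 female KO-labelled points lie above it.

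Within a library, the ratio of partner chains does not depend on how libraries are scaled. Col4a1 to Col4a2 ranged from 2.41 to 3.56 in RPKM (mean 2.91 ± 0.353 SD over 12 libraries), and Het165 lay inside it at 2.77. Col1a1 to Col1a2, whose trimer holds 2 chains of the first and 1 of the second, ranged from 2.71 to 12.2. Its means were 9.96 ± 2.12 and 7.44 ± 0.583 in the female Het and KO-labelled groups and 3.84 ± 1.43 and 3.5 ± 0.585 in the male ones. Col6a1 to Col6a2 ran from 8.28 to 11.3 in female Het, from 6.08 to 7.12 in KO-labelled females, without overlap, and 7.61 to 10.9 and 7.27 to 8.77 in the male groups, with overlap. These ratios were not tested. Col6a3 stood at 0.0498 ± 0.0252 of Col6a2 and Col5a1 at 0.253 ± 0.0487 of Col5a2. The lengths set the size of a ratio: by the longest protein-coding transcript, the mean over 12 libraries was 2.95 in place of 6.19 for Col1a1 to Col1a2, 4.97 in place of 8.32 for Col6a1 to Col6a2 and 0.178 in place of 0.253 for Col5a1 to Col5a2.

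**Figure D5:**
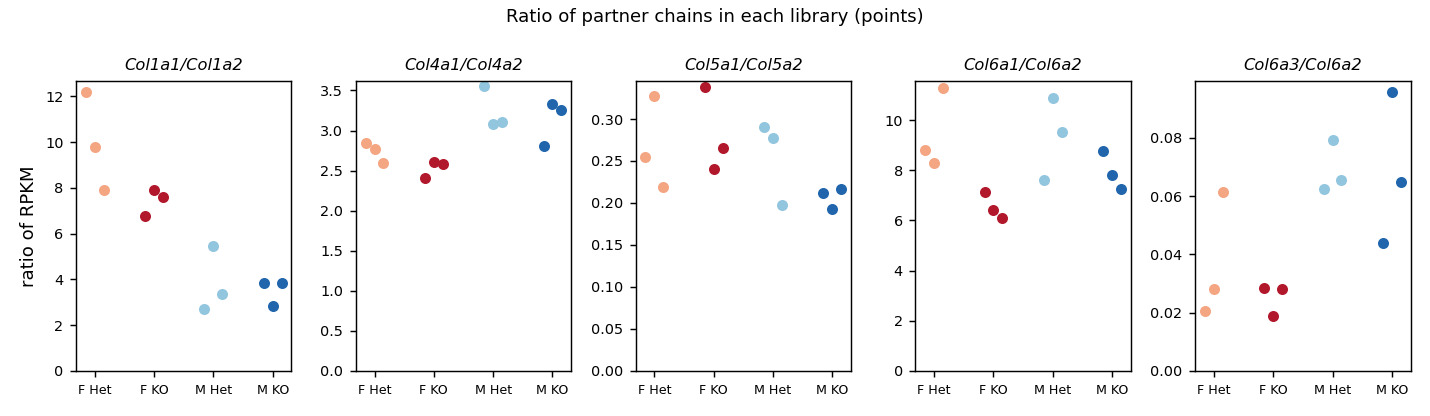
Ratio of the RPKM of partner chains in each library (points) by sex and genotype label, 3 animals per group, with each axis starting at 0. Col4a1/Col4a2 stays between 2.41 and 3.56, while Col1a1/Col1a2 spans 2.71 to 12.2 and is higher in the female table.

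Promoter windows from RefSeq (GRCm38.p6, 250 bases before to 50 after a start) were held for 35 of the 44 collagens. Windows were searched on both strands for the antioxidant response element core TGACNNNGC, which NRF2 with a small MAF protein binds, the RBPJ core TGGGAA of Notch signalling and the AP-1 motif TGANTCA. The antioxidant core was in 7 of 35 collagen genes (20%, against 12.4% of all 32851 windows): Col13a1, Col24a1, Col4a2, Col6a2, Col6a5, Col7a1 and Col9a2. The RBPJ core was in 12 of 35 (34.3%, against 25.6%): Col10a1, Col13a1, Col17a1, Col18a1, Col20a1, Col28a1, Col4a5, Col4a6, Col6a4, Col6a6, Col9a1 and Col9a2. A gene with several windows was counted when any of them held the motif. The AP-1 motif was in 1 of 35, Col6a1 (2.86%, against 7.81%). Motifs were counted separately even where they overlap, and a match describes the letters only. The sequences before the start sites of selected genes are shown 5′ to 3′ on the gene's strand: Col4a6, called in the average, and Col18a1 and Col5a3. These last are among the 7 tested collagens whose female groups did not overlap (18.9%, against 22.1% of all genes), and neither was called in females with all libraries. Capitals mark the RBPJ core, read on the other strand. In Col4a6 its first base lies 59 bases before the RefSeq start site. The stretches are chrX:141474096-141474326, chr10:77166549-77166780 and chr9:20815118-20815317, all on the minus strand, and the stretches shown for Col18a1 and Col5a3 hold none of the motifs. The RBPJ core counted for Col18a1 does not lie within the stretch shown.
Col4a6: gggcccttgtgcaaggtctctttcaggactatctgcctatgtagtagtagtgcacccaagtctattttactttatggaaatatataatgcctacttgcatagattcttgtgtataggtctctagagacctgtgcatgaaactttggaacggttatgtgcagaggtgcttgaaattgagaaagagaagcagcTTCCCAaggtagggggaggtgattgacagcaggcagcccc
Col18a1: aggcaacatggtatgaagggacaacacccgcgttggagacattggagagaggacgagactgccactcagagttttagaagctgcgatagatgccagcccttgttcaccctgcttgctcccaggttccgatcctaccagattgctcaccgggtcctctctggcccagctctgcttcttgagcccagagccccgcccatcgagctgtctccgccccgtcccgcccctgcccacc
Col5a3: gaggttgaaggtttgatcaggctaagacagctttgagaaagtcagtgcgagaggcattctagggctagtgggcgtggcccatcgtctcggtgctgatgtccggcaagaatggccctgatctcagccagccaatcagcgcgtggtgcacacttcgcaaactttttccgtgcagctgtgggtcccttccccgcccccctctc

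The genes that make, trim, bind and sense collagens were read from 6 lists of 73 genes, of which 65 were tested. In females 0 of 65 were higher and 2 lower (1.29% and 0.983% of all genes), in males 0 higher and 1 lower (0.704% and 0.157%), and in the average 2 higher and 3 lower (2.15% and 1.27%). The difference between the sexes passed for 0 of 65 (0.00677% of all genes). Without Het165 it passed for 1 of 66, Mrc2 (1.36% of all genes). Their median log2 fold changes with all libraries lay between 0.05 and 0.06 in these comparisons. Over all tested genes, the KO-labelled and Het groups did not overlap for 22.1% in females and 17.4% in males. For a single gene below, a lack of overlap therefore says little by itself.

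Of 14 tested hydroxylation and glycosylation enzymes, P4ha2, a prolyl hydroxylase subunit, fell in females from 87.8, 121 and 91.9 CPM to 72.1, 70.0 and 56.6 CPM (log2 -0.65, edgeR adjusted p = 0.0411). The call was lost with library totals alone and on leaving out any female library but Het165 (adjusted p 0.0299 to 0.214). P4ha2 stood at 105 to 128 and 118 to 136 CPM in the male groups (log2 0.15, adjusted p = 0.712). P3h2, a prolyl hydroxylase that acts on type IV collagen, was lower on average (log2 -0.57, adjusted p = 0.0481), a call kept in 8 of 18 alternatives and, among fits that left out 1 library, without Het181, Het204 or KO240 (0.0349 to 0.132). Of its exonic bases, 28.4% overlap another gene model.

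With all libraries, none of 10 folding and export genes passed. Serpinh1, the collagen chaperone HSP47, held 1818, 2158 and 2481 CPM in female Het and 1712, 1398 and 1160 CPM in KO-labelled females, without overlap (log2 -0.66, edgeR adjusted p = 0.067, and 0.0305 without Het165). In males it held 883, 1581 and 1054 CPM in Het and 1457, 1600 and 1143 CPM in KO-labelled animals, with overlap. Creb3l1, a transcription factor of the secretory pathway, was second in females (log2 -0.62, adjusted p = 0.0947).

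With all libraries, neither the 8 tested procollagen-cleaving genes nor the 7 cross-linking genes held a call. Within a sex the smallest edgeR adjusted p of the first list was 0.155 for Pcolce2, an enhancer of procollagen C-proteinase, in females (log2 -0.75), and its average change was -0.71 (0.061). Within a sex the smallest of the second was 0.0657 for the lysyl oxidase gene Lox in females (log2 -0.52). Without Het165, Lox was lower in females (log2 -0.52, adjusted p = 0.027) and Adamts14, a procollagen N-proteinase, was higher (log2 0.89, 0.0344, against 0.30 and 0.687 with all libraries). Adamts14 held 4.39, 12.97 and 5.33 CPM in female Het and 10.4, 8.71 and 9.57 CPM in KO-labelled females, so Het165 was the highest of the 6.

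Among 12 tested receptors and uptake genes, Sdc1, a cell-surface heparan sulphate proteoglycan that binds collagen, was lower with the KO label. It stood at 41.3, 54.0 and 54.5 CPM in female Het and 39.9, 34.5 and 35.6 CPM in KO-labelled females. In males it fell from 41.6, 55.8 and 41.3 CPM to 26.4, 26.1 and 28.4 CPM. The groups did not overlap in either sex. The change was -0.77 on the log2 scale in males (edgeR adjusted p = 0.0296), -0.50 in females (0.103) and -0.64 ± 0.101 (SE) on average (0.000999), and the average passed in all 18 alternatives. The male call held without KO247 or KO255 and was lost without any of the other 4 male libraries (0.0156 to 0.204).

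Calcr, the receptor of collagen V on satellite cells, held 115, 153 and 126 CPM in female Het and 95.7, 108 and 71.7 CPM in KO-labelled females. The female groups did not overlap, and the log2 fold change was -0.57 (edgeR adjusted p = 0.0998, and 0.0861 without Het165). In males it held 117, 159 and 189 CPM and 138, 113 and 233 CPM (log2 0.05, adjusted p = 0.970). Ddr2, the receptor kinase for fibrillar collagens, had means of 449 ± 45.5 and 480 ± 51.4 CPM in females and 418 ± 24.5 and 351 ± 43.2 CPM in males. Itga1, the collagen-binding integrin subunit, had means of 6.11 ± 3.79 and 4.67 ± 1.49 CPM in females and 7.95 ± 2.36 and 9.08 ± 3.33 CPM in males. Neither passed in either sex. Mrc2, an endocytic receptor that takes up collagen, held 27.4, 48.5 and 27.4 CPM in female Het and 50.6, 61.4 and 59.5 CPM in KO-labelled females, without overlap. In males it held 42.3, 50.6 and 41.1 CPM in Het and 23.7, 30.8 and 50.9 CPM in KO-labelled animals, with overlap. The female change was 0.69 on the log2 scale (edgeR adjusted p = 0.116), and 0.98 without Het165 (0.00442). The difference between the sexes was 1.05 (adjusted p = 0.236), and 1.33 without Het165 (0.0453).

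Among 14 matrix partners, Nid1, the nidogen that joins the type IV collagen and laminin networks, was higher with the KO label. It stood at 49.7, 72.8 and 55.8 CPM in female Het and 93.9, 108 and 82.3 CPM in KO-labelled females, and at 87.6, 88.5 and 64.0 CPM in male Het and 124, 102 and 145 CPM in KO-labelled males. The groups did not overlap in either sex, where 22.1% of all genes did not in females and 17.4% in males. The share of genes apart in both sexes was not counted. The change was 1.54-fold on average (log2 0.63 ± 0.114 SE, edgeR adjusted p = 0.00368) and passed in all 18 alternatives. Within a sex it was 0.62 in females (adjusted p = 0.0671) and 0.63 in males (0.0918).

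Matn2, a matrilin that binds collagen and other matrix proteins, was 1.64-fold higher on average (edgeR adjusted p = 0.0376), a call kept in 10 of 18 alternatives and, among fits that left out 1 library, without Het165, KO166, Het245 or KO255 (0.00719 to 0.101). Vwa1, a matrix protein of the perlecan and collagen VI layer, fell in females from 171, 172 and 99.8 CPM to 73.6, 80.8 and 72.6 CPM (log2 -1.02, adjusted p = 0.015), a call lost without Het164, KO166 or KO188 (up to 0.0972). It stood at 210 to 312 and 202 to 238 CPM in the male groups, and 25.2% of its exonic bases overlap another gene model. Without Het165, 11 of 66 tested genes of the 6 lists were higher in females and 6 lower (5.25% and 4.99% of all genes). Among them were Nid1, Matn2, the perlecan gene Hspg2, Bgn and Fn1 as higher and Serpinh1, Vwa1 and Lum as lower. Het165 was singled out by its high collagens, so these calls without it are no separate evidence of a change.

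Markers of other cells moved with the groups in part. The summed level of 15 fibro-adipogenic markers, of which 14 had a mean of at least 1 CPM, ran from 2969 to 3362 CPM in female Het, from 2378 to 2604 CPM in KO-labelled females, and 2460 to 2748 and 3048 to 3300 CPM in the male groups. Of these, Dcn and Lum are also on the list of matrix partners. The defining marker Pdgfra was a small part of this sum, so the shift of the sum rests on other genes of the list. The 14 satellite cell markers summed to 13160 to 14120 CPM in female Het and 10140 to 12160 CPM in KO-labelled females, without overlap, and to 15780 to 17510 and 17220 to 19170 CPM in the male groups. Pax7 was likewise a small part of that sum. Markers of leukocytes summed to 94.98 to 133 and 43.5 to 69.3 CPM in females, without overlap, and 28.3 to 99.5 and 59.95 to 72.1 CPM in males. Tenocyte markers summed to 65.5 to 73.2 and 59.5 to 104 CPM in females and 149.8 to 161 and 119 to 149 CPM in males, where the groups did not overlap. Glial markers summed to 54.5 to 80.4 and 46.6 to 51.6 CPM in females, without overlap, and 72.8 to 94.0 and 69.8 to 96.9 CPM in males. Myofibre markers summed to 113 to 330.2 and 135 to 722 CPM in females and 43.4 to 57.8 and 41.5 to 129 CPM in males. Summed endothelial markers were 114 to 140 and 132 to 170 CPM in females and 264 to 277 and 173 to 408 CPM in males. Their part in the collagen results was not tested. In bulk libraries such as these, fewer cells of a type and less RNA per cell cannot be told apart.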

How the data were processed

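The deposited tables hold whole-number counts of fragments for each Ensembl gene. Per the file headers, the authors ran featureCounts 2.0.0 against exons of GRCm38 (Ensembl release 99), ignoring strand and leaving out reads that map to several places or overlap several genes, so reads shared by collagen paralogs are not counted. The submitters' processing notes name STAR, mm10, Subread and DESeq2. Per the labels' protocols, cDNA was made by Smart-Seq2, without molecular identifiers.

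CPM and RPKM were computed from the deposited counts with column totals and the deposited length. Tests used edgeR 4.0.16 in R 4.3.3 (robust quasi-likelihood fit, TMM scaling, filterByExpr at 10 counts, Benjamini-Hochberg over all genes) on 6 libraries per sex, and on all 12 for the average and the difference. Scripts were tested on simulated data. DESeq2 1.42.0, limma 3.58.1 voom, other scalings and filters, and leaving out each library were alternatives. The length of the longest protein-coding transcript was an alternative chosen after seeing the data. Symbols came from GENCODE M21, whose exons also gave the overlap of gene models, and collagens overlapped by at most 6.07%. The tables held 0 columns of other samples.

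The members and lists were chosen with earlier results of these data known. Values in each library are given for collagens with an adjusted p under 0.05 in any comparison and for the 8 of highest mean RPKM. Genes of the pathway lists are named where they passed in a sex, otherwise up to 2 per list of smallest p, and always Calcr, Itga1, Ddr2 and Serpinh1. Col18a1, Col26a1, Col22a1, Col6a6 and Col17a1, the genes called in the average alone and those named for a call without Het165 were added after their values were seen. Nothing in the labels says more of the replicates than that animals differ, so p-values measure the spread between these animals.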

Additional observations from a re-analysis of the deposited data

How the results depend on the processing

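The count of 31 expressed collagens was 37 at a mean of 0.5 CPM, 26 at 2 CPM, and 30 to 31 when a library was left out. The count of called collagens in females (0) became 2 without the low-count filter (1000 of all genes in place of 319) and 1 with DESeq2 (726 genes), and ran from 0 to 6 when a library was left out (144 to 1479 genes), the 6 without Het165. In males (0) it became 1 without the filter (375 genes in place of 115), DESeq2 called 276 genes, and leaving out a library gave 0 (41 to 294 genes). For the difference of the sexes (0, with 1 gene in all) it ran from 0 to 1 when a library was left out (0 to 206 genes), with 358 genes without the filter and 225 with DESeq2. For the average (1, with 504 genes) it became 0 with library totals alone or limma voom, 3 without the filter (858 genes), 2 with DESeq2 (837 genes), and 0 to 3 when a library was left out (318 to 931 genes). By transcript length the mean ratio became 2.95 for Col1a1 to Col1a2, 0.178 for Col5a1 to Col5a2 and 4.97 for Col6a1 to Col6a2, and the mean level 276 RPKM for Col3a1 and 52.4 RPKM for Col5a2. Among the results followed under every setting, the direction turned in 3, all on leaving out 1 library: Col5a1 in females ran from -0.0164 (log2, without Het181) to 0.564, Col6a1 in males from -0.451 to 0.0959 (without Het245) and Col1a1 in males from -0.764 to 0.192 (without Het245). Without Het165 the female sign also turned for 6 of the 31 expressed collagens, none called: Col1a2 (-0.47 to 0.25), Col17a1 (-0.36 to 0.03), Col19a1 (-0.19 to 0.09), Col12a1 (-0.16 to 0.02), Col27a1 (-0.01 to 0.37) and Col14a1 (0.004 to -0.07), and 21 in place of 17 were positive. Leaving out a library lowers the number of animals and also changes the number of genes tested, and the cause of these shifts was not tested. No paired analysis was possible because animal numbers are unique to each animal. Genes with few counts, such as Col4a6, Col6a6 and Col22a1, are limited by depth.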
